A study of Mus musculus with 8 samples.

Results

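The nucleus-encoded subunits of respiratory chain complexes I to IV were examined in the livers of mice lacking both liver X receptors (LXRDKO) and of wild-type (WT) mice. Members were all genes whose symbol begins with Nduf and a family letter a, b, c, s or v with a digit, with Uqcr, or with Cox and a digit from 4 to 8, together with Sdha, Sdhb, Sdhc and Sdhd. Of 25010 genes in the RNA-Seq table, 67 symbols met this pattern, and the 2 that name pseudogenes (Uqcrh-ps1 and Uqcrh-ps2) were left out. The remaining 65 members were 37 genes of complex I, 4 of complex II, 8 of complex III and 16 of complex IV.

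Livers of 2 WT and 2 LXRDKO mice were compared, on a C57BL/6 background, aged 8 weeks and fasted for 4 to 6 hours, with RNA taken from the left lobe. The knockout is of LXRα and LXRβ in the whole body, so every liver cell type lacks the receptors, and each library is 1 mouse. ATAC libraries of the same study were not analysed here. Reads counted on genes numbered 55772659 and 72842744 in WT replicates 1 and 2, and 63681131 and 56281367 in LXRDKO replicates 1 and 2. Values below are normalized counts, that is reads divided by 1 size factor per library.

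The knocked-out genes were examined first as a check of the labels. Nr1h3, which encodes LXRα, had WT values of 5785 and 5322 normalized counts and LXRDKO values of 1712 and 1826. Nr1h2, which encodes LXRβ, had 2987 and 3110 in WT and 925 and 1003 in LXRDKO. Both transcripts lay lower in both knockout livers, with log2 fold changes of -1.65 ± 0.10 (SE) for Nr1h3 and -1.66 ± 0.10 for Nr1h2, each with a limma adjusted p of 0.0147. Both calls were lost in limma without the variance trend and without either LXRDKO liver, with adjusted p from 0.0768 to 0.212, while the log2 fold changes with 1 liver left out stayed between -1.72 and -1.59. Reads on a knocked-out gene can come from the parts of the transcript that the allele leaves in place. Of hepatocyte markers, Alb, the gene of serum albumin, had from 4644569 to 5959085 normalized counts in the 4 libraries.

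The respiratory chain of the inner mitochondrial membrane passes electrons from nutrients to oxygen. Complex I takes electrons from NADH and complex II from succinate, which makes it a part of the citric acid cycle as well. Both hand them to ubiquinone, complex III passes them on to cytochrome c, and complex IV, cytochrome c oxidase, gives them to oxygen. Complexes I, III and IV pump protons and so feed ATP synthase, and each holds 1 or more core subunits encoded in mitochondrial DNA beside the nucleus-encoded ones, whereas complex II is encoded in the nucleus alone. Hepatocytes are rich in mitochondria and use the chain for fat oxidation, gluconeogenesis and urea synthesis.

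No member passed the test between genotypes. Of the 65 members, 62 reached a mean of 10 normalized counts and were tested with limma among 15578 genes. At an adjusted p of 0.05, 0 of 62 members were called, against 50 genes or 0.321% of all genes tested. At an unadjusted limma p under 0.05 the members gave 0, against 2068 genes or 13.3%. DESeq2 on the recovered reads called 0 members and 3.59% of its 15797 genes, with 0 members and 7.31% of all 25010 genes, those under the filter included, at an unadjusted p under 0.05. The quasi-likelihood test of edgeR called 0 members and 0.315% of genes, with 0 members and 13.1% of genes at an unadjusted p under 0.05. With 2 livers against 2, the smallest two-sided p that an exact permutation can give for 1 gene is 0.333, so each call rests on the spread that limma shares across genes.

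The intervals state how large a difference could have been missed under the spread that limma shares across genes, not from the livers of each gene alone. Interval widths without the variance trend are not given here. The 95% interval of the log2 fold change held 0 for 62 of 62 members. For 57 of the 62 it lay wholly within ±0.5, which is a 1.41-fold change either way, compared with 5919 of the 15578 genes tested and 4362 of the 6316 genes whose mean reached 1000 normalized counts. All 56 members whose mean reached 1000 normalized counts were among the 57, and their intervals reached from -0.45 at the lowest to 0.42 at the highest. The 5 members with wider intervals were Ndufa4l2, Ndufb4, Ndufs5, Cox6b2 and Cox7a1, which had the lowest means of those tested. Over the 62 members the median size of the log2 fold change, without its sign, was 0.05. It was 0.17 for all genes tested and 0.12 for the 6316 whose mean reached 1000.

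**Figure D1:**
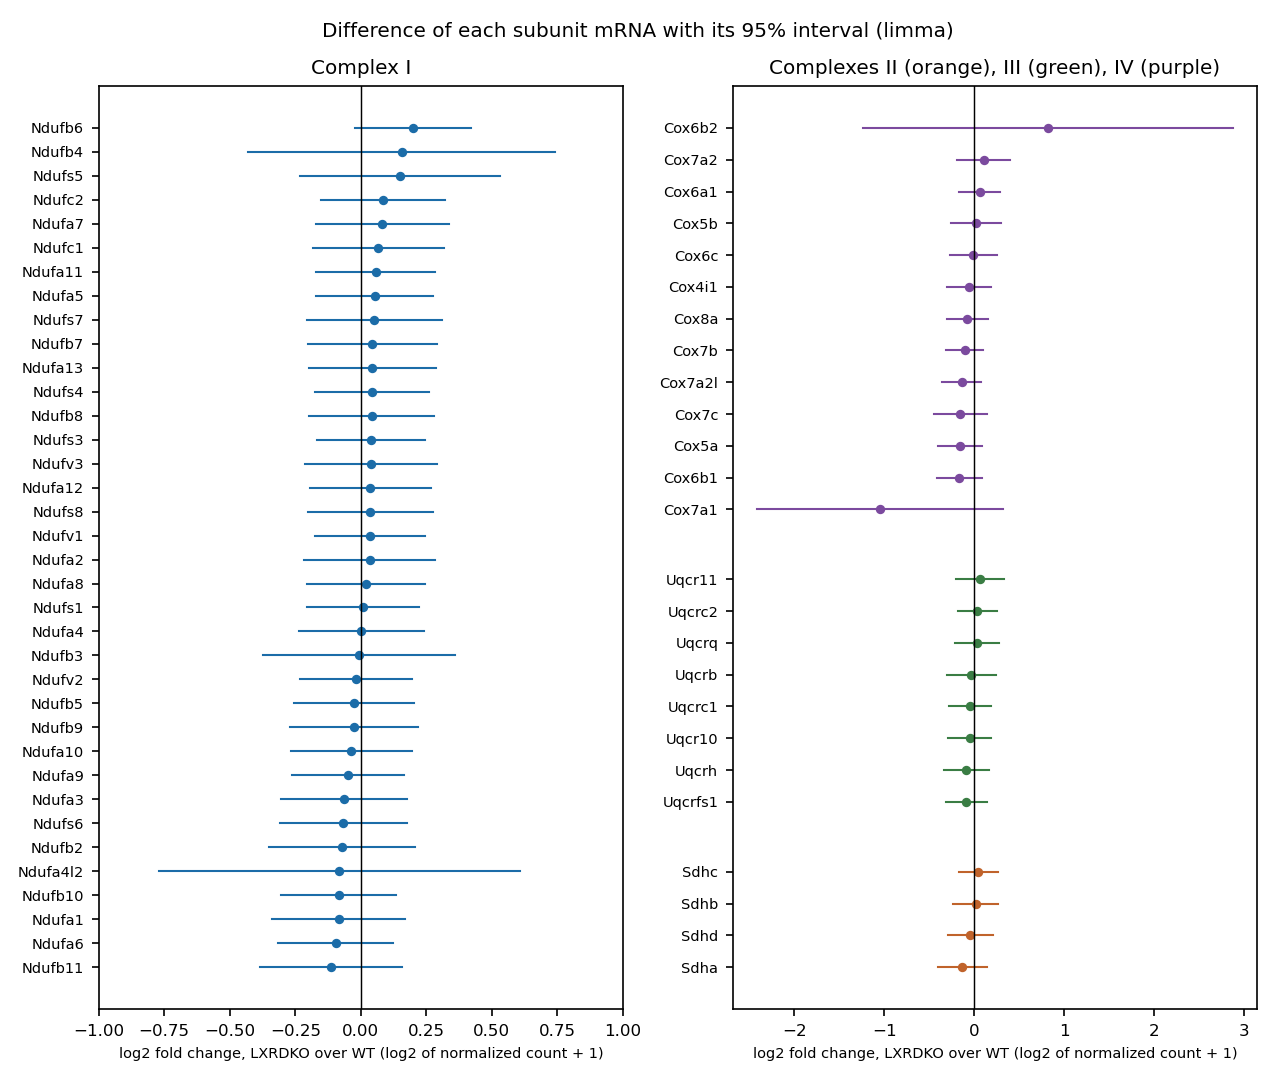
Points give the log2 fold change of LXRDKO over WT for 61 of the 62 members tested, on the scale of log2(normalized count + 1), and lines give the 95% interval from limma. The left panel holds complex I and the right panel complexes II, III and IV on a wider axis, and each interval crosses 0.

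Complex I is an L-shaped assembly whose peripheral arm carries the flavin and the iron-sulphur clusters. All 37 members passed the filter, 22 with a higher and 15 with a lower mean in LXRDKO. The median log2 fold change was 0.03 against -0.005 over all genes tested. Over the 6316 genes whose mean reached 1000 normalized counts the median was -0.04, with 2542 higher and 3774 lower. For Ndufv1, a core subunit that binds NADH, the livers held 8916 and 8942 in WT and 9277 and 9013 in LXRDKO. Both knockout values of Ndufv1 stood above both WT values by a small margin.

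The largest difference among the well-expressed subunits of complex I was that of Ndufb6, an accessory subunit of the membrane arm. Ndufb6 had WT values of 2173 and 2242 and LXRDKO values of 2592 and 2480. The knockout livers stood above the WT livers, with a log2 fold change of 0.20 ± 0.09 (SE) and a 95% interval from -0.02 to 0.42. Its limma adjusted p was 0.414 and that of DESeq2 was 0.741. Among the least expressed subunits Ndufb4 gave 0.16 ± 0.24 (SE), with WT values of 89.0 and 93.4 and LXRDKO values of 112.0 and 92.2, so that the genotypes overlapped.

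At the other end stood Ndufb11 and Ndufa6, both accessory subunits. Ndufb11, on the X chromosome, had WT values of 5548 and 5210 and LXRDKO values of 5369 and 4593, a log2 fold change of -0.11 ± 0.11 (SE), and the genotypes overlapped. Ndufa6 had 7763 and 7904 in WT and 7576 and 7086 in LXRDKO, a log2 fold change of -0.10 ± 0.09 (SE). Both of its knockout values lay below both WT values. The limma adjusted p was 0.725 for Ndufb11 and 0.711 for Ndufa6.

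Levels can be compared between genes only per length, here as normalized counts per kilobase of 1 principal transcript. On that scale the complex I members ran from 99.5 to 18367 with a median of 4603. The highest were Ndufa4 at 18367, Ndufa6 at 12851 and Ndufb10 at 9126. Ndufa4 had WT values of 10821 and 11570 and LXRDKO values of 11656 and 10769, a log2 fold change of 0.00 ± 0.10 (SE). The Ndufa4 protein was first assigned to complex I and is now known as a subunit of cytochrome c oxidase, so its symbol places it with complex I here. Counting Ndufa4 and its paralog Ndufa4l2 with complex IV, a choice made after seeing the data, left the medians at 0.03 for complex I and -0.08 for complex IV. Ndufb10, an accessory subunit of the membrane arm, had a log2 fold change of -0.08 ± 0.09 (SE).

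Complex II, succinate dehydrogenase, consists of the flavoprotein Sdha, the iron-sulphur protein Sdhb and the membrane anchors Sdhc and Sdhd. Sdha had WT values of 37404 and 34170 and LXRDKO values of 33242 and 31938. Both knockout livers lay below both WT livers, with a log2 fold change of -0.13 ± 0.11 (SE), a 95% interval from -0.41 to 0.14 and a limma adjusted p of 0.672. Sdhb had 9857 and 9918 in WT and 10679 and 9339 in LXRDKO, the knockout values standing on either side of the WT values. Sdhc had 8817 and 9195 in WT and 9504 and 9078 in LXRDKO. Sdhd had 9885 and 11215 in WT and 10328 and 10085 in LXRDKO. For these 3 genes the genotypes overlapped, and the log2 fold changes were 0.01, 0.04 and -0.04, each with an SE of 0.09 or 0.10. Over the 4 genes the median was -0.02. Per kilobase the catalytic Sdha stood highest at 11789, followed by Sdhb at 8711 and Sdhd at 8431, with Sdhc at 2885 on a transcript of 3171 bases.

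Complex III, the cytochrome bc1 complex, had 8 members, of which 3 were higher and 5 lower in LXRDKO, and the median log2 fold change was -0.04. Over the 6316 genes whose mean reached 1000 normalized counts the median was also -0.04. The direction of the complex III median was not stable. It was 0.01 when libraries were scaled to their totals, with 6 members higher and 2 lower. The Rieske iron-sulphur protein Uqcrfs1 had WT values of 10123 and 10781 and LXRDKO values of 10071 and 9554, a log2 fold change of -0.09 ± 0.09 (SE). Its knockout values lay below its WT values, with a limma adjusted p of 0.742. The hinge protein Uqcrh, which docks cytochrome c1, had 6174 and 6698 in WT and 6414 and 5704 in LXRDKO, and the genotypes overlapped. Uqcr11 gave the largest value at 0.06 ± 0.11 (SE), followed by the core protein Uqcrc2 at 0.03 ± 0.09. Uqcrc2 was among the most even of all, with 12632 and 12946 in WT and 12942 and 13222 in LXRDKO.

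The complex III levels per kilobase spanned 1657 to 11421. Uqcrh at 11421, Uqcr10 at 11098 and the core protein Uqcrc1 at 10057 were the highest. Uqcrc1 had WT values of 17105 and 16682 and LXRDKO values of 16897 and 15811, a log2 fold change of -0.05 ± 0.09 (SE). Uqcr10 gave the same log2 fold change of -0.05 ± 0.10. For each of these 3 the difference between the knockout replicates exceeded the difference between the genotype means.

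Complex IV had 16 members, of which 13 were tested. In LXRDKO 4 were higher and 9 lower, and the median log2 fold change of -0.08 was the lowest of the 4 complexes. It kept its sign under each of the other scalings, and was -0.02 with scaling to library totals. Cox5a, which sits on the matrix side of the enzyme, had WT values of 7656 and 7810 and LXRDKO values of 7332 and 6520. Both knockout values lay below both WT values, with a log2 fold change of -0.16 ± 0.10 (SE), a 95% interval from -0.40 to 0.08 and a limma adjusted p of 0.557. Cox6b1, which faces the intermembrane space, had 9351 and 9454 in WT and 7867 and 8933 in LXRDKO. It too lay lower in both knockout livers, with a log2 fold change of -0.17 ± 0.10 (SE), an interval from -0.41 to 0.08 and a limma adjusted p of 0.558. The DESeq2 adjusted p was 0.892 for Cox5a and 0.883 for Cox6b1.

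Several subunits of cytochrome c oxidase exist as tissue isoforms, and the pairs of isoforms were read against each other per kilobase. Cox4i1, the isoform found in most tissues, had a mean of 22785 normalized counts per kilobase, the highest of all 65 members, and its partner Cox4i2 had 7.0. Cox6a1 stood at 19097 and Cox6a2, the isoform of heart and skeletal muscle, at 3.71. Cox8a stood at 13836 and the muscle form Cox8b at 3.37. These 3 partners, Cox4i2, Cox6a2 and Cox8b, were the members that failed the filter, with at most 12 reads in any library. Cox6b1 stood at 14403 and the testis form Cox6b2 at 60.7, and Ndufa4 at 18367 and Ndufa4l2 at 155. The liver forms thus made up nearly all of each pair in both genotypes.

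Cox7a1, the heart and muscle form of the subunit, made up between 0.667% and 2.71% of its pair with Cox7a2. It had WT values of 29.7 and 76.4 and LXRDKO values of 29.4 and 17.2. WT replicate 1 and LXRDKO replicate 1 were nearly equal, while WT replicate 2 stood well above the other 3 livers. The log2 fold change of -1.05 ± 0.55 (SE) had a 95% interval from -2.42 to 0.32 and a limma adjusted p of 0.490, and DESeq2 gave 0.560. Without WT replicate 2 it was -0.38, and with 1 liver left out at a time it ran from -1.72 to -0.38. Of 5 striated muscle markers 2 were in the table, and both, Acta1 and Actc1, had at most 3 reads in any library.

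Cox6b2 had WT values of 9.12 and 43.3 and LXRDKO values of 21.8 and 60.0. The replicates of each genotype differed more than the genotypes did, and its log2 fold change of 0.82 ± 0.83 (SE) had an interval from -1.24 to 2.88. With 1 liver left out at a time it ran from -0.25 to 1.88. Cox7a2, the form found in most tissues, had 3945 and 4594 in WT and 4881 and 4280 in LXRDKO, a log2 fold change of 0.10 ± 0.12 (SE). Ndufa4l2, known as a gene induced by low oxygen, had 181 and 119 in WT and 125 and 153 in LXRDKO. For each of these genes the ranges of the genotypes overlapped.

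Cox7a2l, also known as SCAF1, helps to join complex III and complex IV in supercomplexes. It had WT values of 2521 and 2621 and LXRDKO values of 2308 and 2351, lower in both knockout livers, with a log2 fold change of -0.14 ± 0.09 (SE) and a limma adjusted p of 0.567. Cox7b, on the X chromosome, was likewise lower in both, at -0.11 ± 0.08 (SE), with 5493 and 5358 in WT and 5102 and 4965 in LXRDKO. Cox8a gave -0.08 ± 0.09 (SE), Cox4i1 -0.06 ± 0.10 and Cox6a1 0.06 ± 0.09. None of these 5 differences passed the test.

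**Figure D2:**
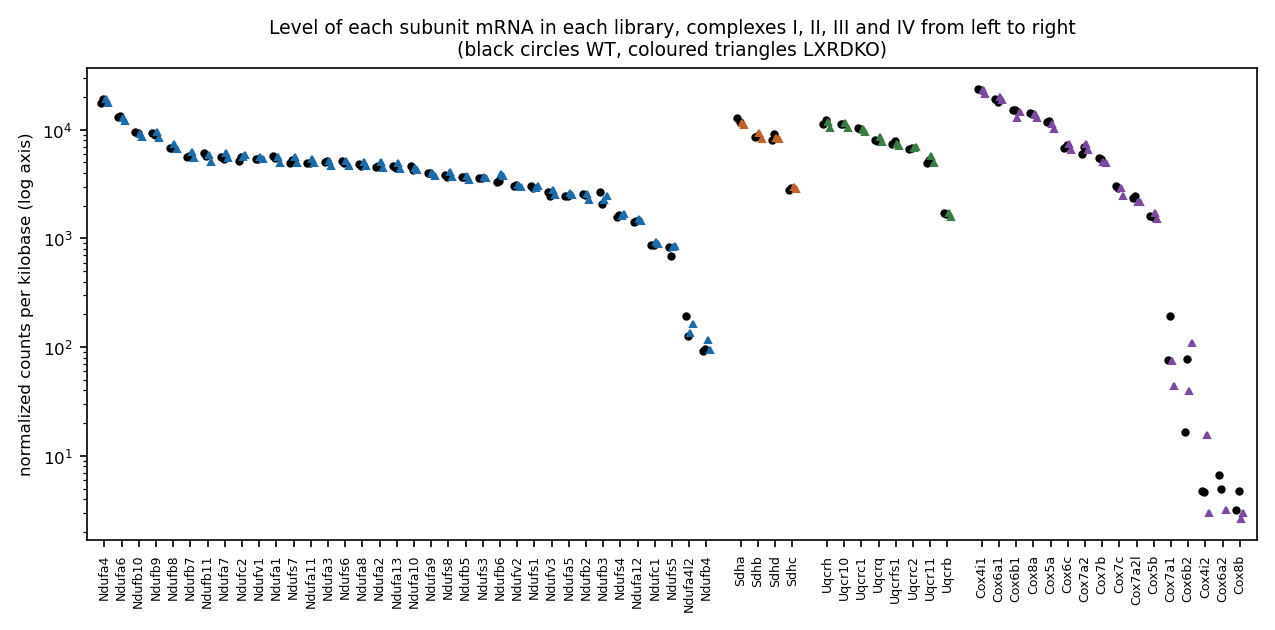
Normalized counts per kilobase of principal transcript on a log axis for 64 of the 65 members in each of the 4 libraries, ordered by mean within each complex. Black circles are WT and coloured triangles LXRDKO livers, a value of 0 (Cox6a2 in LXRDKO replicate 1) is not drawn, and the levels fall from 22785 for Cox4i1 to under 10 for Cox4i2, Cox6a2 and Cox8b.

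Counting members whose genotypes did not overlap gives a further description. Both LXRDKO livers stood above both WT livers for 6 of the 62 members tested, and for 21.7% of all genes tested. All 6 belong to complex I: Ndufa5, Ndufb6, Ndufc1, Ndufs3, Ndufs5 and Ndufv1. Both stood below for 12 members, and for 23.0% of all genes tested. These were Ndufa6, Ndufa9 and Ndufb10 of complex I, Sdha of complex II, Uqcrfs1 of complex III, and Cox5a, Cox6b1, Cox7a1, Cox7a2l, Cox7b, Cox7c and Cox8a of complex IV. In all, 18 of 62 members did not overlap, against 44.7% of all genes tested. Among genes whose mean reached 1000 normalized counts, 1075 of 6316 stood above and 1922 below. Of the 56 members in that class 5 stood above and 11 below.

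The counts without overlap, repeated under other scalings after seeing the data, moved with the scaling. With libraries scaled to their totals, complex I had 16 members above and 0 below, complex II 1 and 1, complex III 1 and 0, and complex IV 1 above and 2 below, against 28.8% above and 17.2% below over all genes tested. That scaling raised the median log2 fold change of all genes tested from -0.005 to 0.05. The medians of complexes I to IV became 0.09, 0.04, 0.01 and -0.02, so their order held while those of complexes II and III changed sign. With upper-quartile scaling complex I had 4 above and 2 below, complex II 0 and 1, complex III 0 and 0, and complex IV 0 above and 7 below, against 21.3% above and 23.3% below over all genes tested.

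The 2 knockout livers differed from each other in most members. LXRDKO replicate 2 lay below LXRDKO replicate 1 for 52 of 62 members, in all 4 complexes, and for 7736 of the 15578 genes tested. The same held for 15 of 17 ATP synthase genes, 52 of 77 mitochondrial and 57 of 81 cytosolic ribosomal protein genes. It was thus not particular to the members. Several other lists were more evenly split. Assembly factors gave 7 of 15 for complex I, 6 of 10 for complexes II and III and 11 of 21 for complex IV. Electron carriers and ubiquinone synthesis gave 8 of 17, regulators 6 of 15 and mitochondrially encoded subunits 4 of 8. Between the WT livers, replicate 2 lay below replicate 1 for 30 of 62. The median log2 difference of replicate 2 from replicate 1 was -0.11 in LXRDKO and 0.003 in WT for the members, and 0.002 and -0.003 for all genes tested. By complex, the knockout difference had a median of -0.11 for complex I, -0.06 for complex II, -0.13 for complex III and -0.13 for complex IV. This exceeds in size the median log2 fold change between genotypes in each complex.

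Which knockout liver was used therefore set the direction. Without LXRDKO replicate 1 the medians of complexes I to IV were -0.04, -0.07, -0.09 and -0.13, and without LXRDKO replicate 2 they were 0.06, 0.03, 0.02 and -0.01. Members of complex I were then 14 higher and 23 lower in the first case, and 29 higher and 8 lower in the second. Complex IV kept a median below 0 in both. In the share of each library's reads, the 65 members together took 0.569% and 0.583% in WT replicates 1 and 2 and 0.604% and 0.568% in LXRDKO replicates 1 and 2. The knockout values thus enclosed both WT values.

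**Figure D3:**
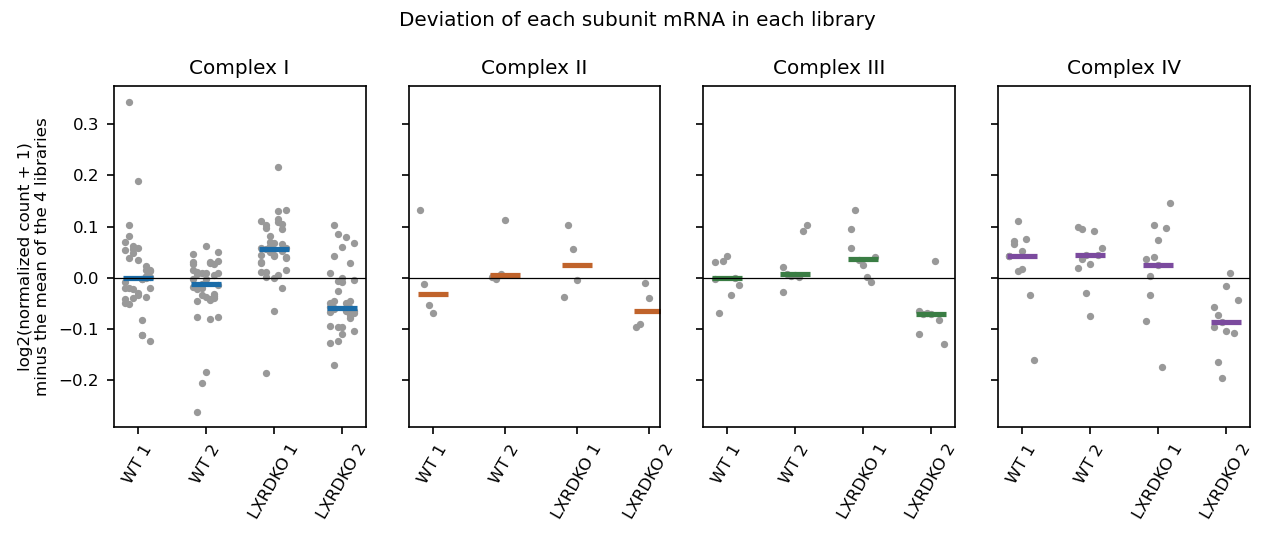
Each grey point is 1 member, as its log2(normalized count + 1) in a library minus its mean over the 4 libraries, and the coloured bar is the median of the complex. Cox6b2 and Cox7a1, with means under 50 normalized counts, are left off the points but enter the medians, and in all 4 complexes the bar of LXRDKO replicate 2 is the lowest, at -0.06, -0.06, -0.07 and -0.09.

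Many of these genes have processed copies elsewhere in the genome, which can take or lose reads. For each principal transcript every window of 50 bases, the read length, was searched on both strands of GRCm38.p6 with 0 mismatches. No window lay elsewhere for 33 members, and 11 had at least 20% of windows elsewhere. The share was 80.0% for Ndufs5, 71.5% for Cox7c, 61.5% for Uqcrb, 59.2% for Cox7a2l, 43.0% for Ndufs3 and 41.3% for Ndufb4. For these genes a level, per kilobase or not, is uncertain where reads with several matches were dropped or shared out. The median log2 fold change was -0.005 over the tested members with no shared window and -0.002 over those with any.

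Ndufb4 shows how complete the sharing can be. The gene lies on the minus strand at chr16:37647170-37654453, and all 338 of its 338 coding windows also occur elsewhere. A processed pseudogene annotated as Ndufb4c at chr15:73809504-73809920 shares 368 of its 922 transcript windows, and a stretch at chr19:25033132-25033534, inside the span of Dock8, shares 354. At 99.5 normalized counts per kilobase Ndufb4 was the lowest of complex I, and the part of the shared reads in that level was not tested. The following 50 coding bases, at chr16:37654190-37654239 on the minus strand, recur without a mismatch at chr15:73809727-73809776 on the minus and chr19:25033262-25033311 on the plus strand of GRCm38.
Ndufb4: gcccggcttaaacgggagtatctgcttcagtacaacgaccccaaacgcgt
Cox7c, whose 140 coding windows are all found elsewhere as well, has the next example, at chr13:86045801-86045850 on the minus strand, repeated at chr11:75599811-75599860 on the minus and chr14:38380641-38380690 on the plus strand. A read from either stretch cannot be assigned to 1 place by its sequence.
Cox7c: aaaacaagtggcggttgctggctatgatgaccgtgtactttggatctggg

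The members lie on 18 chromosomes, with 8 on chromosome 7, 6 each on chromosomes 1, 13 and 17, and 3 on the X chromosome (Ndufa1, Ndufb11 and Cox7b). Of the 8 on chromosome 7, the tissue isoforms Cox6a2, Cox6b2, Cox7a1 and Cox8b are 4.

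Promoters were taken from RefSeq on GRCm38.p6 as 300 bases, from 250 before to 50 after the start, and 52 members had 54 of them. The letters CGCATGCG, the core of the motif of NRF1, a factor long tied to respiratory chain genes, were found in 5 of 54 member promoters or 9.26%. They were found in 3.41% of 14294 promoters of genes tested and in 1.87% of all 32851 promoters. The ETS letters CCGGAAGT, which GABP binds, were in 7.41% of member promoters and 7.30% of promoters of genes tested. The NF-Y letters CCAAT were in 37.0% and 37.4%. The nuclear receptor letters AGGTCA were in 20.4% and 13.4%, and in 16.3% of all promoters. All of these letters were sought on both strands. Direct repeats of AGGTCA spaced by 1 or 4 bases (DR1 and DR4) were in 0 of 54 member promoters. They were in 0.0350% and 0% of promoters of genes tested, and in 0.0396% and 0.0152% of all promoters. A match of letters is not a site of binding, and with 54 promoters these shares are a description.

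The letters AAGATGGC, the core of the YY1 motif, were in 7 of 54 member promoters or 13.0%, against 4.03% of promoters of genes tested. All 7 belong to complex I, which supplies 34 of the 54 promoters, and the difference between complexes was not tested. They are Ndufa3, Ndufa9, Ndufb8, Ndufc1, Ndufs4, Ndufs6 and Ndufs7. In all 7 the match lay after the start, its first base between 23 and 39 bases into the transcript, and its ATG was the annotated start codon. The log2 fold changes of Ndufs7 and Ndufc1 were 0.05 and 0.07, and those of Ndufa3 and Ndufa9 were -0.06 and -0.05. The windows of 30 bases around 4 of them, with the motif in capitals, show the shared letters at the start codon. They lie at chr10:80249462-80249491 on the plus strand for Ndufs7, chr7:3617384-3617413 on the plus strand for Ndufa3, chr6:126849097-126849126 on the minus strand for Ndufa9 and chr3:51408915-51408944 on the minus strand for Ndufc1.
Ndufs7: aggccgaggccAAGATGGCggcgctggcgg
Ndufa3: ccgccaagaacAAGATGGCcgggagtaagt
Ndufa9: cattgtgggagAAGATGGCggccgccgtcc
Ndufc1: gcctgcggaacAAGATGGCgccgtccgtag
The NRF1 core lay before the start in 3 of its 5 promoters, across it in 1 (Uqcr11) and after it in 1. It is in capitals in the windows of Cox6a1 at chr5:115349101-115349130 on the minus strand, Ndufa11 at chr17:56717692-56717721 on the plus strand and Uqcr11 at chr10:80406808-80406837 on the minus strand.
Cox6a1: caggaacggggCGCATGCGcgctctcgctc
Ndufa11: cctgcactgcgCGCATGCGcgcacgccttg
Uqcr11: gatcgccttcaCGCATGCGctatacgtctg

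The subunits encoded in mitochondrial DNA complete complexes I, III and IV. Of 13 listed genes, which include those of complex V, 9 were in the table and 8 were tested. In limma 0 were called, 0 had an unadjusted p under 0.05, and both DESeq2 and edgeR called 0. The median log2 fold change was -0.02 and the genotypes overlapped for all 8. The limma interval lay wholly within ±0.5 for 0 of the 8 and within ±1 for 7, so differences here are bounded only loosely. Of complex IV only mt-Co1 was in the table, with 843396 to 1054833 normalized counts. By contrast mt-Nd3 had 8.58 to 19.9, and mt-Atp6, which was not tested, had at most 2.28. Shared windows were not searched for these genes. mt-Cytb, the cytochrome b of complex III, had WT values of 790490 and 591236 and LXRDKO values of 773095 and 802820. mt-Nd6 had 20256 and 16069 in WT and 16705 and 15027 in LXRDKO. The 9 genes took 5.68% and 4.60% of reads in WT and 5.34% and 5.51% in LXRDKO, so the WT livers lay on either side of the knockout livers. These libraries were made by capture of polyadenylated RNA, which mitochondrial transcripts carry to varying extents.

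Of nuclear subunits that the symbol pattern misses, 2 were listed. Cyc1, cytochrome c1 of complex III, had a log2 fold change of -0.06 ± 0.09 (SE), and Ndufab1, the mitochondrial acyl carrier protein, 0.05 ± 0.09. Of 17 ATP synthase genes in the table, limma, DESeq2 and edgeR called 0, with 2 higher, 15 lower and a median log2 fold change of -0.04. With 1 liver left out, 9 of the 15 took the other sign at least once. The 1 gene with an unadjusted limma p under 0.05 was Atpif1, which encodes an inhibitor of the enzyme. Atpif1 had WT values of 544 and 582 and LXRDKO values of 682 and 794, a log2 fold change of 0.39 ± 0.14 (SE) with a limma adjusted p of 0.323. Atp5g1, a gene of the c subunit, gave -0.19 ± 0.12 (SE).

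Assembly factors insert subunits and cofactors and are not part of the finished complexes. Of 15 for complex I, 13 were higher and 2 lower in LXRDKO, and the median log2 fold change was 0.06, and limma, DESeq2 and edgeR called 0. With 1 liver left out, 7 of the 13 took the other sign at least once. The 1 with an unadjusted limma p under 0.05 was Foxred1, with WT values of 2279 and 2423 and LXRDKO values of 2821 and 3175. Its log2 fold change was 0.35 ± 0.10 (SE) and its limma adjusted p 0.258. Timmdc1 gave -0.19 ± 0.10 (SE). Of 10 factors for complexes II and III, limma, DESeq2 and edgeR called 0, and 0 had an unadjusted limma p under 0.05, with 5 higher, 5 lower and a median of -0.005. The largest were Sdhaf1 at 0.25 ± 0.10 (SE) and Uqcc3 at 0.14 ± 0.11.

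For complex IV, 21 assembly factors were tested and 0 were called by limma, DESeq2 or edgeR, and the median log2 fold change was 0.02. Of these, 2 had an unadjusted limma p under 0.05. Coa6 and Sco2, which both serve the delivery of copper to the enzyme, stood higher in both knockout livers. Coa6 had WT values of 1397 and 1148 and LXRDKO values of 1602 and 1966, a log2 fold change of 0.49 ± 0.15 (SE). Sco2 had 129 and 145 in WT and 213 and 202 in LXRDKO, a log2 fold change of 0.59 ± 0.19 (SE). The limma adjusted p was 0.288 for Coa6 and 0.294 for Sco2.

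Among 17 genes of electron carriers and ubiquinone synthesis limma, DESeq2 and edgeR called 0, with 8 higher, 9 lower and a median log2 fold change of -0.04. Etfdh, which passes electrons from fat oxidation to ubiquinone, was the 1 gene with an unadjusted limma p under 0.05. It had WT values of 17861 and 18392 and LXRDKO values of 14858 and 15787, a log2 fold change of -0.24 ± 0.09 (SE) and a limma adjusted p of 0.359. Coq7, of ubiquinone synthesis, gave 0.24 ± 0.10 (SE).

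Of 15 regulators of respiratory chain genes limma called 0 and edgeR 0, while DESeq2 called 1. That gene was Ppara, the nuclear receptor of fatty acid oxidation. Ppara had WT values of 15122 and 12695 and LXRDKO values of 8264 and 10337. Both knockout livers lay below both WT livers, with a log2 fold change of -0.58 ± 0.15 (SE), a DESeq2 adjusted p of 0.0282 and a limma adjusted p of 0.214. An unadjusted limma p under 0.05 was also seen for Ppargc1a, the coactivator PGC-1α, named here after its values were seen. It had 657 and 743 in WT and 826 and 1011 in LXRDKO, a log2 fold change of 0.39 ± 0.15 (SE) with a limma adjusted p of 0.356. The median over the 15 was -0.12, with 5 higher and 10 lower. Both LXRDKO livers stood above both WT livers for 2, Ppargc1a and Twnk, and below for 7. The shares over all genes tested were 21.7% and 23.0%. Beside Ppara the 7 were Gabpa at -0.25, Gabpb1 at -0.23, Ppargc1b at -0.20, Yy1 and Nrf1 at -0.17 each, and Polg at -0.12.

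Markers of other liver cells were examined in the same livers, and limma called some of those of Kupffer and endothelial cells. In whole liver, fewer cells of a type and less RNA per cell cannot be told apart. Of 9 Kupffer cell markers limma called 3 (Cd5l, Clec4f and Marco) and DESeq2 called 5, all lower in LXRDKO. By log2 fold change 7 of the 9 were lower and 2 higher, Csf1r at 0.05 and C1qb at 0.06. The 9 summed to WT values of 13593 and 15334 and LXRDKO values of 9045 and 5311. C1qa was the most abundant per kilobase, with WT values of 1833 and 2090 and LXRDKO values of 2051 and 1439 that overlapped them, and 0 of the 9 markers were at the floor of 3 reads in all livers. For 7 endothelial markers the sums were 14612 and 13296 in WT and 11961 and 9002 in LXRDKO, with Clec4g the most abundant per kilobase. Limma and DESeq2 called 1, Kdr, which was lower in LXRDKO. By log2 fold change 6 of the 7 were lower and 1 higher, Lyve1 at 0.23. The limma adjusted p was 0.0446 for Marco and 0.0498 for Kdr. Untrended limma made 1 call over all genes tested, so at most 1 of these limma calls stood there.

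For 6 stellate cell markers the sums gave WT values of 11522 and 12031 and LXRDKO values of 16308 and 18209, with Dcn the most abundant, and limma called 0 and DESeq2 2. The 5 cholangiocyte markers summed to 2077 and 3582 in WT and 4553 and 5409 in LXRDKO, led by Spp1, with limma calling 0 and DESeq2 1. The 4 lymphocyte markers summed to 112 and 165 in WT and 67.4 and 46.1 in LXRDKO, led by Cd3e, and both tools called 0. The 6 hepatocyte markers summed to 6883178 and 7739850 in WT and 7249755 and 6664454 in LXRDKO, with most of each sum from Alb. Limma called 0 of the 6 and DESeq2 1, Tat, which was higher in LXRDKO, and the median log2 fold change of the 6 was 0.12. In LXRDKO replicate 2, where 52 members lay below LXRDKO replicate 1, the hepatocyte, Kupffer, endothelial and lymphocyte sums were the lowest and the stellate, cholangiocyte and neutrophil sums the highest of the 4 livers. Alb was lowest in that liver, while Cps1 and Tat were highest there. The part of these cell types in the values of the members was not tested.

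The remaining marker sums were low or uneven within a genotype. The 3 erythroid markers summed to WT values of 10353 and 8301 and LXRDKO values of 9724 and 9069, led by Alas2. The 3 neutrophil markers summed to 13.7 and 16.1 in WT and 18.0 and 20.4 in LXRDKO, led by S100a9, and Ly6g had at most 3 reads in any library. The 2 striated muscle genes in the table, led by Actc1, summed to at most 4.29 normalized counts in any library. The brown adipocyte marker Cidea had at most 5.70. Limma and DESeq2 called 0 of the markers tested among these 4 types.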

How the data were processed

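RNA-Seq of 4 livers was used. Per the study's methods, the authors captured polyadenylated RNA with a stranded kit, read it single-end over 50 bases, aligned with STAR 2.6.0c to mm10 and normalized with DESeq2. The deposited values are a signal: read counts divided by a size factor per library. Reads were recovered from it, and 100% of values came out whole within 0.01 reads. Values were tested as log2(normalized count + 1), for genes with a mean of at least 10, with limma 3.58.1 (R 4.3.3, trended moderation, Benjamini-Hochberg adjustment over all genes, adjusted p 0.05). The recovered reads also went into DESeq2 1.42.0 and edgeR 4.0.16. The fit was tested on simulated data. Medians carry no test. Positions and transcripts came from GENCODE M21, where 24987 identifiers matched and 23 did not. Named genes were, in each complex, the 3 smallest p, the 3 highest levels per kilobase and the 2 largest and 2 smallest fold changes, with all of complex II, the tissue isoforms and called genes, and, of each pathway list, called genes or else the 2 smallest p. Members and lists were chosen with earlier results of these data known. Members and regulators without overlap, genes with shared windows or motifs, and some markers and mitochondrially encoded genes were named in addition, after the values were seen.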

Additional observations from a re-analysis of the deposited data

How the results depend on the processing

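Choices were varied as follows: a pseudocount of 0.5 or 8, a filter at a mean of 50 or none, scaling by upper quartile or library total, robust or untrended limma, a replicate block, DESeq2, edgeR, an adjusted p of 0.01 or 0.10, and 1 liver left out. In each of them 0 members were called. An unadjusted p under 0.05 was seen for 1 member with scaling to library totals, 1 without WT replicate 1 and 1 without WT replicate 2. Over all genes the 50 calls became 25 with the filter at a mean of 50, 1 with untrended limma, 567 with DESeq2, 2 at an adjusted p of 0.01 and 138 at 0.10. With 1 liver left out the calls ran from 2 to 265, and the lone liver was assumed to vary like the other group. The replicate block gave 90 calls. The numbers do not pair the mice (the correlation of replicate deviations between genotypes was 0.00312), and the block called 0 members.

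The median log2 fold change of complex I was 0.0878 with scaling to library totals, and with 1 liver left out it ran from -0.0409 without LXRDKO replicate 1 to 0.0552 without LXRDKO replicate 2. The other 3 medians moved by less than the spread between replicates in every setting with all 4 livers. Even so, those of complexes II and III changed sign with scaling to library totals, to 0.04 and 0.01. With 1 liver left out the medians ran from -0.07 to 0.03 for complex II, -0.09 to 0.02 for complex III and -0.13 to -0.01 for complex IV. Leaving out members with at least 20% of windows elsewhere, an alternative chosen after seeing the data, likewise moved no median by more than that spread. The complex I median came close to it, falling from 0.0333 to 0.0077 with a spread of 0.0271. For the 27 named members, 287 of 295 values under settings with all 4 livers moved by less than the spread between replicates. Of the 27, 10 took the other sign in at least 1 setting. Among all members tested, 12 turned sign with scaling to library totals, 16 without LXRDKO replicate 1 and 14 without LXRDKO replicate 2. Nr1h3 and Nr1h2 lost their calls without the trend and without either LXRDKO liver, with adjusted p from 0.0768 to 0.212. With 2 livers per genotype, differences in the 5 least expressed members tested are bounded only loosely.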

Other observations

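Ribosomal protein genes were set beside the respiratory chain. Of 80 genes with symbols of mitochondrial ribosomal proteins, which include the pseudogenes Mrpl23-ps1 and Mrpl48-ps (not tested), 77 were tested, limma, DESeq2 and edgeR called 0, and limma gave 0 at an unadjusted p under 0.05. Their median log2 fold change was 0.01, with 46 higher and 31 lower. Of these, 26 of the 46 and 14 of the 31 took the other sign at least once with 1 liver left out. The smallest unadjusted p belonged to Mrps31, at 0.24 ± 0.10 (SE), and Mrpl38, at -0.23 ± 0.10. LXRDKO replicate 2 lay below LXRDKO replicate 1 for 52 of the 77. It did so for 52 of 62 respiratory chain members, 15 of 17 ATP synthase genes and 57 of 81 cytosolic ribosomal protein genes. Lists such as complex I assembly factors (7 of 15) and electron carriers and ubiquinone synthesis (8 of 17) were more evenly split. Between the WT livers, replicate 2 lay below replicate 1 for 46 of the 77 mitochondrial and 9 of the 81 cytosolic ribosomal protein genes.

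Of 86 genes with symbols of cytosolic ribosomal proteins 81 were tested and limma, DESeq2 and edgeR called 0, with 1 at an unadjusted limma p under 0.05, Rps27l. Their median log2 fold change was 0.03, with 50 higher and 31 lower. Of these, 29 of the 50 and 24 of the 31 took the other sign at least once with 1 liver left out. Rps27l, a paralog of Rps27 known as a target of p53, had WT values of 2905 and 3126 and LXRDKO values of 3552 and 3908, a log2 fold change of 0.31 ± 0.10 (SE) with a limma adjusted p of 0.294. Rpl22l1 gave 0.33 ± 0.15 (SE).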
